A study of Mus musculus with 22 samples.

Results

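Messages that pass between neurons and microglia through ligands and their receptors were described here at the level of ribosome-bound mRNA, for 10 genes chosen by symbol: Il34, Csf1 and their receptor Csf1r; Cx3cl1 and Cx3cr1; Cd200; Cd47 and Sirpa; Tgfb1 and Tgfbr1. All 10 were found among the 55385 genes of the tables, and all 10 passed the filter on low counts. The mice were 6 weeks old and carried 1 floxed Rpl22 allele (Rpl22 Fl/+), the RiboTag allele, which gives an HA-tagged ribosomal protein wherever Cre is active, so that an HA pull-down recovers mRNA on the ribosomes of the Cre-expressing cells. Rbp4-Cre was used for dentate gyrus granule cells (from hippocampus) and for layer V cortical neurons (from cortex), Gabra6-Cre for cerebellar granule cells (from cerebellum), Dlx6a-Cre for inhibitory interneurons (from the hippocampi of pooled mice), Aldh1-cre, as the labels spell the line that the methods give as Aldh1l1-cre/ERT2, for astrocytes (from cortex) and Tmem119-cre for microglia (from cortex). The astrocyte and microglia lines are tamoxifen-inducible and only those mice received tamoxifen, so that this treatment and the difference between glia and neurons cannot be told apart. Each cell type had 3 replicates, and the first-batch library was used for the 4 replicates that were sequenced in both batches, which gave 18 libraries with 38270477 to 71440915 estimated counts each.

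Microglia depend on signals through CSF1R, a receptor tyrosine kinase with a pair of ligands, IL-34 and CSF1. Neurons carry fractalkine (CX3CL1), CD200 and CD47 on their surface, and microglia carry the receptors CX3CR1, CD200R1 and SIRPα, which are known to restrain their activation and engulfment. TGF-β1 binds a receptor of TGFBR2 and TGFBR1 subunits, and this pathway is required for the mature microglial state. The genes are taken below ligand by ligand, with levels in TPM (a measure of transcript abundance scaled to transcript length and library size) summed over the transcripts of a gene. Fold changes come from a count model (edgeR), with p-values adjusted over all 20524 genes tested and a threshold of 0.05. Contrasts with neurons are against the average log2 level of the 4 neuronal types. Fewer cells of a type and less RNA per cell cannot be told apart in such samples.

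The pull-downs held the glial and neuronal markers of their labels, with markers of other cells beside them. The summed level of 15 microglial markers was 40730 to 43260 TPM in microglia, 142.7 to 173.0 TPM in astrocytes and 10.07 to 52.71 TPM in the neuronal types. The summed level of 10 neuronal markers was 8701 to 17630 TPM in the neuronal types, but also 1725 to 2223 TPM in astrocytes and 983.3 to 1134 TPM in microglia. The layer V markers did not separate that type as a list, because Etv1 was at 727.5 TPM in cerebellar granule cells and Bcl11b at 159.5 TPM in dentate gyrus granule cells, whereas Fezf2 was at 85.5 TPM in layer V neurons and at 0 in all 3 cerebellar granule cell libraries. Oligodendrocyte markers summed to 2823 to 3030 TPM in the interneuron libraries and to at most 1037 TPM elsewhere. Vascular markers were highest in microglia, where 8 endothelial markers summed to 324.6 to 487.6 TPM (at most 75.88 TPM elsewhere) and 6 mural cell markers to 242.9 to 329.7 TPM (at most 116.8 TPM elsewhere), with none of either list at 0 in any type. All microglia and interneuron libraries were of the second sequencing batch, the other 12 libraries of the first. One resequenced layer V library, which is not among the 18, was labelled male in the second batch and female in the first, and its level of the Y-linked gene Ddx3y was 0.034 TPM.

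Il34 was mainly an mRNA of layer V neurons and interneurons. It lies on chromosome 8 (110741829 to 110805924, minus strand, GRCm38). Its level was 103.9, 97.5 and 103.2 TPM in layer V replicates 1 to 3, and 68.4, 75.2 and 72.7 TPM in interneurons. Both groups lay above every library of the other types, of which the highest was a microglia library at 25.0 TPM. Microglia (20.95, 20.85 and 25.04 TPM), astrocytes (16.8, 20.5 and 14.2 TPM) and dentate gyrus granule cells (8.74, 11.6 and 18.1 TPM) followed, with overlap between the last and astrocytes. Cerebellar granule cells were lowest, at 2.07, 1.87 and 1.54 TPM. Relative to the other neurons, Il34 was 9.65-fold higher in layer V neurons (log2 3.27 ± 0.12 SE, adjusted p = 1.0e-13), 5.16-fold higher in interneurons (adjusted p = 1.0e-11) and 25.8-fold lower in cerebellar granule cells (adjusted p = 1.4e-13). An annotated processed transcript, Il34-205, was assigned 34.0% to 43.9% of the Il34 TPM in the 5 types other than cerebellar granule cells, and without it and other transcripts not marked as protein-coding the mean of layer V neurons was 56.7 TPM instead of 101.5 TPM.

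Csf1, the other ligand (chromosome 3, 107741048 to 107760469, minus strand), had another order. Dentate gyrus granule cells (21.3, 23.0 and 19.1 TPM) and astrocytes (16.1, 19.0 and 20.2 TPM) were highest and overlapped, with a fitted difference of 0.01 ± 0.12 (log2, SE, adjusted p = 0.96). Microglia followed at 11.9, 10.1 and 12.7 TPM. The remaining types were lower, cerebellar granule cells at 5.59 to 5.86 TPM, interneurons at 4.20 to 5.65 TPM and layer V neurons at 3.77 to 4.39 TPM. Csf1 was 4.55-fold higher in dentate gyrus granule cells than in the other neurons (log2 2.18 ± 0.09 SE, adjusted p = 3.4e-13), and 3.1-fold higher in astrocytes than in neurons (adjusted p = 3.6e-12).

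The ligand mix thus ran from mostly Il34 to mostly Csf1 among the neuronal types. Il34 made up 96.2% ± 0.19 (SD, n = 3) of the summed Il34 and Csf1 TPM in layer V neurons and 93.8% ± 0.671 in interneurons. The share was 37.1% ± 10.2 in dentate gyrus granule cells, and it lay between 21.6% and 26.1% in cerebellar granule cells. Astrocytes were at 48.0% ± 5.9 and microglia at 65.8% ± 1.9. The sum of both ligands was 105.6 TPM ± 3.8 in layer V neurons and 7.57 TPM ± 0.405 in cerebellar granule cells. No test was run on these shares, which count all transcripts. Protein-coding transcripts held 53.3% to 63.8% of the Il34 TPM on average, by cell type, and at least 99.2% of the Csf1 TPM. On those transcripts alone the Il34 shares would be lower, and such shares were not computed.

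**Figure D1:**
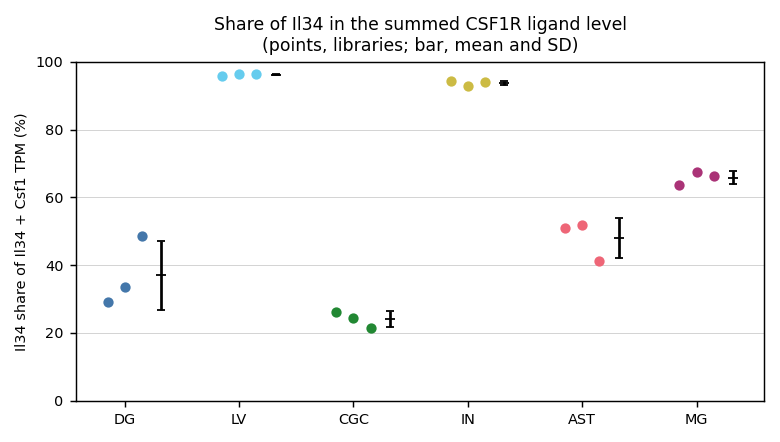
Share of Il34 in the summed Il34 and Csf1 TPM (y axis, percent) by cell type (x axis, with DG dentate gyrus granule cells, LV layer V cortical neurons, CGC cerebellar granule cells, IN inhibitory interneurons, AST astrocytes and MG microglia). TPM was summed over all transcripts, also those not marked as protein-coding. Points are libraries and bars the mean and SD of 3. Layer V neurons and interneurons lie above 90%, cerebellar granule cells between 21.6% and 26.1%.

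Csf1r, the receptor of both ligands, was a microglial mRNA. Its level was 3854, 3888 and 3638 TPM in microglia, where its mean ranked 23 among all genes. Astrocytes had 11.2, 10.4 and 8.15 TPM, and all neuronal libraries had 0.219 to 2.50 TPM. The microglia libraries did not overlap with those of any other type. The fitted difference was 364-fold between microglia and astrocytes (log2 8.51 ± 0.12 SE, adjusted p = 1.9e-19) and 4860-fold between microglia and neurons (log2 12.25 ± 0.08 SE, adjusted p = 8.6e-25). Ptprz1, reported as another receptor for IL-34, was instead highest in astrocytes (187.4 TPM ± 10.35, SD, n = 3) and at 6.33 TPM ± 1.32 in microglia, a 37.9-fold difference (adjusted p = 6.5e-17). Sdc1, a syndecan also known to bind IL-34, was at 21.9 TPM ± 2.95 in cerebellar granule cells and at most 1.23 TPM on average elsewhere. Tyrobp, an adaptor that works with CSF1R and other myeloid receptors, was at 2740 TPM ± 64.0 in microglia, and Spi1, the gene of the myeloid transcription factor PU.1, at 425.5 TPM ± 20.2.

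**Figure D2:**
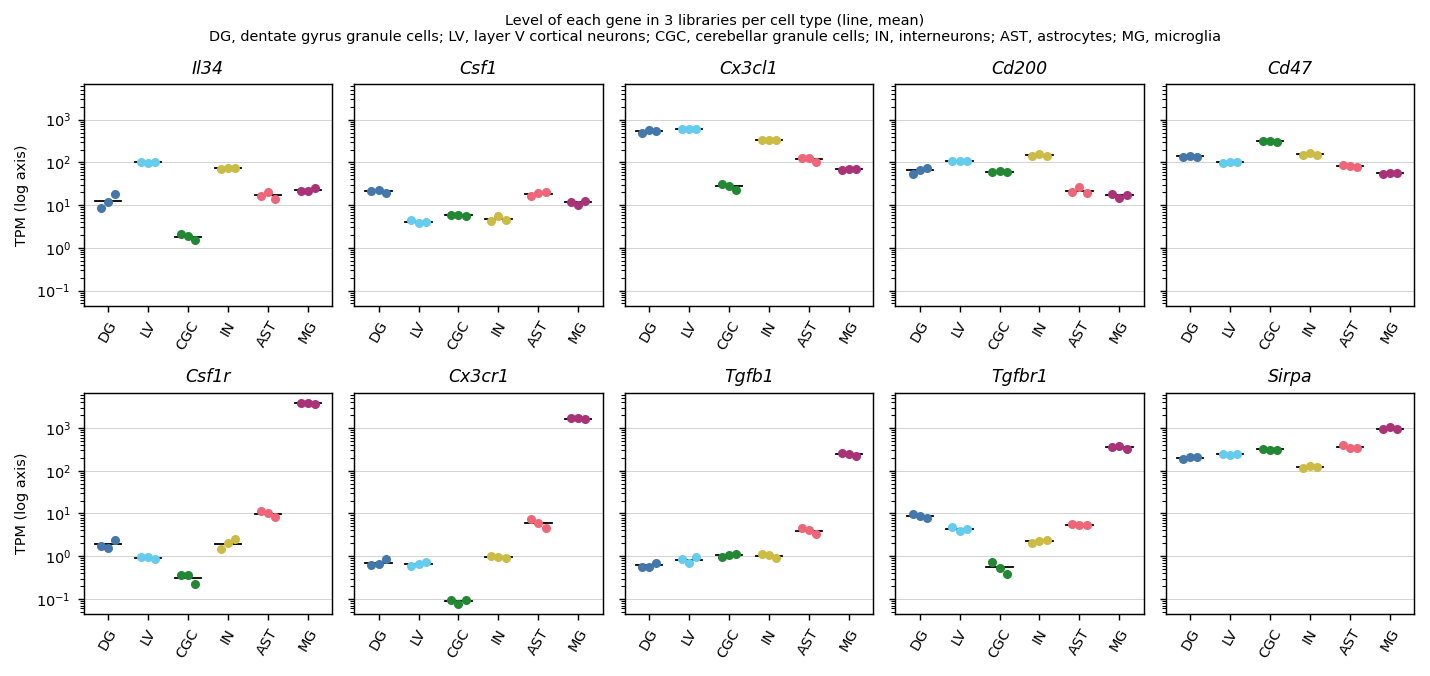
TPM on a log axis (y) of the 10 genes in each of the 18 libraries, by cell type (x). Points are libraries and lines the means of 3. Csf1r, Cx3cr1, Tgfb1 and Tgfbr1 lie highest in microglia by a wide margin, Cx3cl1 and Cd200 lie highest in neuronal types, and Sirpa is above 100 TPM in every library.

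Cx3cl1, the gene of the membrane-bound chemokine fractalkine (chromosome 8, 94772009 to 94782427, plus strand), was among the more abundant mRNAs of forebrain neurons. Layer V neurons had 609.0, 597.1 and 595.7 TPM, where the mean ranked 213 among all genes, and dentate gyrus granule cells had 490.0, 588.4 and 546.2 TPM. Interneurons had 343.3, 335.8 and 336.7 TPM. Cerebellar granule cells had only 30.9, 28.0 and 22.9 TPM, below astrocytes (126.7, 127.8 and 101.8 TPM) and microglia (65.2, 71.7 and 69.2 TPM), and none of the 6 groups overlapped. Cx3cl1 was 17.9-fold lower in cerebellar granule cells than in the other neurons (log2 -4.16 ± 0.07 SE, adjusted p = 1.6e-18). It was 3.45-fold lower in microglia than in the average neuron (adjusted p = 6.4e-15), while microglia were 1.33 ± 0.07 (log2, SE) above cerebellar granule cells (adjusted p = 4.3e-12).

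Cx3cr1, its receptor (chromosome 9, 119901616 to 120069879, minus strand), was again a microglial mRNA. Microglia had 1679, 1674 and 1601 TPM, astrocytes 7.26, 6.05 and 4.51 TPM, and neuronal libraries 0.0759 to 1.00 TPM. The groups of microglia and all other types did not overlap. The difference was 274-fold from astrocytes (adjusted p = 1.6e-19) and 4250-fold from neurons (adjusted p = 8.6e-25). The sheddases that release fractalkine from the membrane differed in their order. Adam17 was highest in microglia (70.0 TPM ± 3.53, SD, n = 3) and at 1.40 to 14.3 TPM on average elsewhere, whereas Adam10 was at 94.8 TPM ± 4.05 in microglia and 84.5 TPM ± 3.36 in cerebellar granule cells. Ctss, a lysosomal cathepsin of microglia that also cleaves fractalkine, was at 8931 TPM ± 490.3 in microglia.

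Cd200, the gene of an immunoglobulin-family surface protein (chromosome 16, 45382135 to 45409053, minus strand), was highest in neurons. Interneurons had 142.7, 159.9 and 144.7 TPM and layer V neurons 109.9, 106.9 and 108.5 TPM. On counts these did not differ past the threshold (0.14 ± 0.10 log2, SE, adjusted p = 0.23). Dentate gyrus (54.2, 67.3 and 75.8 TPM) and cerebellar granule cells (59.7, 61.4 and 59.2 TPM) overlapped and did not differ past it either (adjusted p = 0.84). Astrocytes (20.2, 26.1 and 19.3 TPM) and microglia (18.6, 14.9 and 17.02 TPM) were below all neuronal libraries. The difference between microglia and neurons was 6.55-fold (log2 -2.71 ± 0.09 SE, adjusted p = 6.1e-15). With protein-coding transcripts only, the microglial mean was 10.57 TPM instead of 16.9 TPM. Cd200r1, the inhibitory receptor of CD200, was at 6.52 TPM ± 0.638 in microglia (SD, n = 3) and at most 0.522 TPM on average in the other types, and listed at 0 in all 3 interneuron libraries. It was higher in microglia than in neurons (adjusted p = 1.8e-13) and 39.5-fold higher than in astrocytes (adjusted p = 8.1e-10). Of its relatives, Cd200r4 was higher in microglia than in neurons at a low level (0.564 TPM ± 0.0723, adjusted p = 8.8e-07), and Cd200r2 (adjusted p = 0.28) and Cd200r3 (adjusted p = 0.59) did not pass that test, with means of at most 0.918 TPM in all types.

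Cd47, a widely expressed surface protein that serves as the ligand of SIRPα, was present in every type and highest in cerebellar granule cells. The gene is on chromosome 16 (49800533 to 49915010, plus strand). Cerebellar granule cells had 310.5, 320.8 and 297.5 TPM, interneurons 152.8, 161.5 and 150.9 TPM, dentate gyrus granule cells 136.5, 144.8 and 136.4 TPM and layer V neurons 99.3, 102.0 and 104.2 TPM. Astrocytes (89.1, 82.2 and 79.5 TPM) and microglia (53.0, 57.2 and 55.1 TPM) were lowest, and no pair of groups overlapped in TPM. Cd47 was 2.35-fold higher in cerebellar granule cells than in the other neurons (adjusted p = 4.9e-16) and 2.53-fold lower in microglia than in neurons (log2 -1.34 ± 0.04 SE, adjusted p = 3.3e-16). Dentate gyrus and layer V neurons differed in TPM but not in counts (0.03 ± 0.04 log2, SE, adjusted p = 0.58). The share of the short transcript Cd47-205 (1316 bases) in the Cd47 TPM was 41.9% and 31.1% in these types. A shorter transcript gives more TPM for the same count, but its part in this disagreement was not tested.

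Sirpa was highest in microglia but above 100 TPM in every library of every type. Its position is chromosome 2 (129592835 to 129632228, plus strand), and near-identical relatives (Sirpb1a, Sirpb1b and Sirpb1c), which can share reads with it, did not pass the filter on low counts. Microglia had 927.7, 1050 and 939.2 TPM. Astrocytes followed at 391.1, 350.1 and 342.9 TPM, cerebellar granule cells at 321.0, 314.2 and 313.5 TPM, layer V neurons at 245.8, 236.5 and 248.5 TPM, dentate gyrus granule cells at 185.4, 211.5 and 206.9 TPM and interneurons at 113.8, 126.1 and 121.4 TPM. The groups did not overlap. Sirpa was 4.89-fold higher in microglia than in neurons (log2 2.29 ± 0.04 SE, adjusted p = 5.7e-20) and 2.83-fold higher than in astrocytes (adjusted p = 1.2e-14). The mRNAs of the phosphatases that SIRPα recruits were unlike each other: Ptpn6 (SHP-1) was at 319.4 TPM ± 16.1 in microglia and under 2 TPM on average elsewhere, and Ptpn11 (SHP-2) was at 49.0 to 140.9 TPM on average in all types.

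Transcripts of Cd47 and Sirpa also differed in structure between cell types. These were picked after their values were seen and are given as a description without a test, and how reads of a gene are split among its transcripts is an estimate of the quantification tool. Cd47-210, a processed transcript with an annotated exon that no other Cd47 transcript holds, took between 24.5% and 30.9% of the Cd47 TPM in the astrocyte libraries, 3.42%, 4.84% and 4.09% in microglia and at most 0.192% in any neuronal library. The resequenced astrocyte library gave 27.4%. The exon has 45 bases and lies between coding exons of the other transcripts, at chr16:49899856-49899900 (GRCm38, plus strand). It is shown with 20 intron bases on either side, next to a 63-base coding exon at chr16:49869018-49869080 that the long Cd47 transcript (5250 bases) holds and Cd47-205 lacks, because these exons set the transcripts apart. Capitals mark the exon.
Cd47 exon of 45 bases: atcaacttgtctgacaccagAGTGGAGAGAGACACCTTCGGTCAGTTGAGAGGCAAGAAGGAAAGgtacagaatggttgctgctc
Cd47 exon of 63 bases: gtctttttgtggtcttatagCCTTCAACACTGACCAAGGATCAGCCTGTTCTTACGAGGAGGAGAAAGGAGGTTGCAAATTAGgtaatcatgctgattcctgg
Both exons are flanked by ag and gt, the usual ends of an intron. The 63-base exon was held by transcripts with 57.8% ± 1.01 of the TPM in dentate gyrus granule cells and 67.3% ± 0.447 in microglia, and with 49.9% ± 2.3 (SD, n = 3) in astrocytes. Cd47-210, at 27.1% ± 3.35 of the TPM in astrocytes, lacks this exon and lowers its share there by construction. The lower astrocyte share therefore does not show lower use of the exon among the other transcripts. A pair of short coding exons near the 3′ end of the gene, which Cd47-205 holds and the long transcript lacks, is shown because their use also differed.
Cd47 exon of 25 bases: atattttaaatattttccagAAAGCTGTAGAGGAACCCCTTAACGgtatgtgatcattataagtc
Cd47 exon of 33 bases: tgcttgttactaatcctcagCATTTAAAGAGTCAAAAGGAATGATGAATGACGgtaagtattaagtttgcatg
These exons, at chr16:49908054-49908078 and chr16:49908703-49908735 in the same build, follow each other in Cd47-205. Cd47-210 lacks both, which lowers their share by construction where it is present, most of all in astrocytes. Shares without Cd47-210 were not computed, so the place of astrocytes below does not show lower use among the other transcripts. The 33-base exon was held by transcripts with 42.0% ± 1.2 of the TPM in dentate gyrus granule cells, 40.2% ± 0.633 in cerebellar granule cells, 37.7% ± 2.04 in interneurons, 31.1% ± 2.28 in layer V neurons, 25.0% ± 1.33 in microglia and 22.6% ± 1.92 in astrocytes.

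In Sirpa, 2 annotated transcripts (Sirpa-202 and Sirpa-209) join the exon of the immunoglobulin domain nearest the N-terminus straight to the exon after both further immunoglobulin exons, which have 318 and 336 bases. They took 24.2% ± 0.838 (SD, n = 3) of the TPM of transcripts spanning this stretch in astrocytes, 6.66% ± 0.293 in microglia and 3.26% to 4.34% on average in the neuronal types. The 3 astrocyte libraries, at 23.6% to 25.2%, lay above all others, of which the highest was at 6.91%. The resequenced astrocyte library gave 22.4%. Most of the astrocyte value came from Sirpa-209, which took 18.3% ± 1.39 of the Sirpa TPM there and 2.91% ± 0.117 in microglia, while Sirpa-202 took 4.93% ± 0.765 and 3.13% ± 0.214. The junctions are shown (chromosome 2, GRCm38, plus strand) as 20 bases of the exon that ends at 129609260 in capitals, followed in lower case by 20 bases of the exon that starts at 129618457 when the pair is skipped and at 129615447 when it is included.
Sirpa skipping junction: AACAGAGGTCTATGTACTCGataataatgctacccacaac
Sirpa including junction: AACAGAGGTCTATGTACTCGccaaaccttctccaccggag
Reads across the junction itself were not analysed here, and Sirpa-209, with 876 bases, is much shorter than the 3674 bases of Sirpa-204, the most abundant Sirpa transcript in every type.

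**Figure D3:**
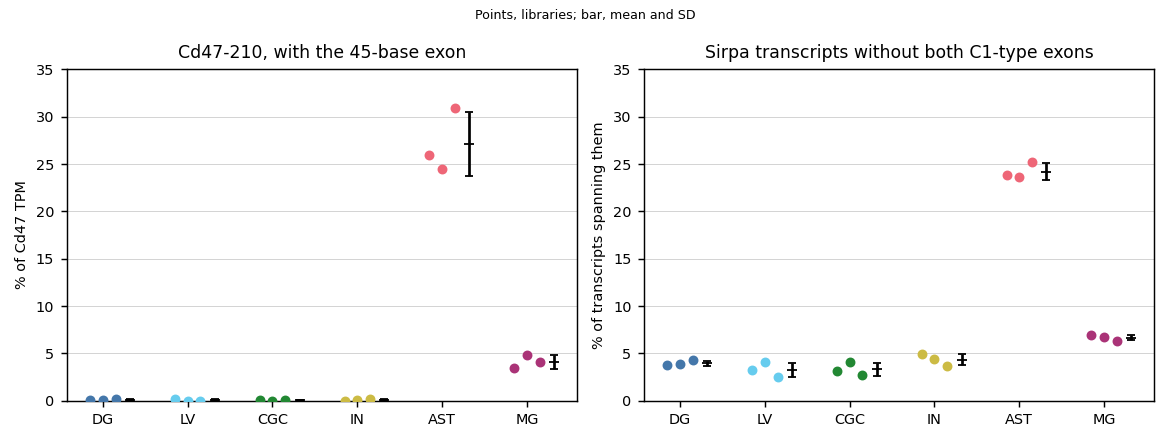
Left, share of Cd47-210 in the Cd47 TPM (y axis, percent). Right, share of transcripts without both further immunoglobulin (C1-type) exons among the Sirpa transcripts spanning them (y axis, percent). Points are libraries by cell type (x axis), bars the mean and SD of 3, and in both panels the 3 astrocyte libraries lie above all others, at 24.5% to 30.9% and 23.6% to 25.2%.

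Tgfb1 and its receptor subunit gene Tgfbr1 were both microglial mRNAs, so that ligand and receptor were highest in the same cell type. Tgfb1 lies on chromosome 7 (25687002 to 25705077, plus strand) and Tgfbr1 on chromosome 4 (47353222 to 47414931, plus strand). Tgfb1 was at 257.7, 252.4 and 222.8 TPM in microglia, 4.61, 4.02 and 3.27 TPM in astrocytes and 0.556 to 1.14 TPM in neuronal libraries. It was 65.3-fold higher in microglia than in astrocytes (adjusted p = 4.8e-18) and 357-fold higher than in neurons (adjusted p = 3.7e-23). Tgfbr1 was at 354.6, 378.4 and 327.3 TPM in microglia. Dentate gyrus granule cells were next, at 9.84, 8.82 and 7.89 TPM, above astrocytes (5.63, 5.51 and 5.26 TPM), layer V neurons (4.88, 3.96 and 4.24 TPM), interneurons (2.07, 2.24 and 2.34 TPM) and cerebellar granule cells (0.739, 0.538 and 0.381 TPM). Microglia were above astrocytes by 65.4-fold (adjusted p = 1.1e-17) and above neurons by 173-fold (adjusted p = 1.9e-22). Among neurons Tgfbr1 was 5.14-fold higher in dentate gyrus granule cells than in the others (adjusted p = 2.2e-13).

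The other TGF-β ligands came from elsewhere. Tgfb2 was highest in dentate gyrus granule cells (30.6 TPM ± 1.07, SD, n = 3) and astrocytes (20.2 TPM ± 1.31), and at 1.67 TPM ± 0.296 in microglia, 11.9-fold below astrocytes (adjusted p = 7.8e-14). Tgfb3 was highest in interneurons (21.0 TPM ± 0.934) and cerebellar granule cells (15.1 TPM ± 1.98). Genes for storing and activating the latent ligand split between the glial types. Nrros, which holds latent TGF-β1 on microglia, was at 46.7 TPM ± 4.85 in microglia and at 0.638 to 4.10 TPM on average elsewhere. Ltbp1, a matrix protein that binds latent TGF-β, was at 23.5 TPM ± 0.768 in astrocytes and 1.59 TPM ± 0.214 in microglia, and the subunits of the activating integrin, Itgav and Itgb8, were at 57.6 TPM ± 7.48 and 41.4 TPM ± 0.968 in astrocytes. Itgb8 was 76.2-fold lower in microglia than in astrocytes (adjusted p = 5.2e-16). Tgfbr2, the receptor subunit that binds the ligand, was at 108.7 TPM ± 8.08 in microglia and at most 3.91 TPM on average in any other type, and Tgfbr3, a co-receptor, was at 9.37 TPM ± 0.168 in cerebellar granule cells and 4.52 TPM ± 0.631 in microglia. The endothelial and mural markers named above were also highest in the microglia libraries, and their part in the microglial levels of these TGF-β genes was not tested.

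Between microglia and neurons, 7 of the 10 genes were higher in microglia and 3 were lower (Cx3cl1, Cd200 and Cd47), where 45.1% of all genes tested were called higher and 37.2% lower. The higher genes were the receptors Csf1r, Cx3cr1, Sirpa and Tgfbr1 and the ligands Tgfb1, Csf1 and Il34. Csf1 was higher against the neuronal average, but microglia were below dentate gyrus granule cells by 0.84 (log2, adjusted p = 3.1e-06). By at least 4-fold, 5 were higher, against 19.7% of all genes, and 1 (Cd200) was lower, against 9.07%. The call for Il34 (log2 0.39 ± 0.12 SE, adjusted p = 0.0085) rested on the averaging of log levels, since microglia were below layer V neurons by 2.06 and below interneurons by 1.39 (log2) and above the granule cells. It was not kept on the TPM scale (log2 0.01, adjusted p = 0.94) or without microglia replicate 3 (log2 0.26, adjusted p = 0.12). Among the libraries of batch 2 alone, with 1 library for each type other than microglia and interneurons, the differences of Csf1r (11.84), Cx3cr1 (11.56), Tgfb1 (8.28), Tgfbr1 (7.43), Sirpa (2.21), Cd200 (-2.83), Cx3cl1 (-1.82) and Cd47 (-1.39) on the log2 scale had the same directions as over both batches.

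Between astrocytes and neurons, 6 genes were higher in astrocytes (43.0% of all genes), 3 were lower, again Cx3cl1, Cd200 and Cd47 (34.1% of all genes), and Il34 did not pass the test (log2 0.03 ± 0.13 SE, adjusted p = 0.84). These calls too were against the neuronal average. Dentate gyrus granule cells were above astrocytes in Tgfbr1 by 0.37 (log2, adjusted p = 0.0051) and did not differ from them in Csf1 (adjusted p = 0.96). Cerebellar granule cells were below astrocytes in Cx3cl1 (log2 -2.355). Il34 was lower in astrocytes on log2(TPM + 1) (-0.36, adjusted p = 0.031) and higher with batch 1 libraries alone, which leave out interneurons (0.68, adjusted p = 0.00085). By at least 4-fold, Csf1r, Cx3cr1 and Tgfb1 were higher (17.1% of all genes) and none of the 10 was lower (3.31% of all genes). In astrocytes, Csf1r and Cx3cr1 were at 0.261% and 0.36% of their microglial mean TPM, within the range of microglial markers there. The part of microglial mRNA in these calls was not tested. Between microglia and astrocytes, 6 genes were higher in microglia (36.3% of all genes) and 4 were lower (39.8%), Csf1, Cx3cl1, Cd200 and Cd47. Csf1r, Cx3cr1, Tgfb1 and Tgfbr1 were higher by at least 4-fold (9.69% of all genes), and none was lower by that much (10.3%). In batch 2 alone, 6 were again higher and 4 lower. The difference of Il34 (log2 0.36 ± 0.15 SE, adjusted p = 0.044) was lost on the TPM scale (adjusted p = 0.073), with no filter on low counts (0.26, adjusted p = 0.08) and without any 1 of 6 libraries, namely each interneuron library, astrocyte replicate 3 and microglia replicates 2 and 3 (0.26 to 0.39, adjusted p = 0.056 to 0.2). The difference of Cd47 (log2 -0.33) became -0.09 (adjusted p = 0.067) with protein-coding transcripts only, which leaves out Cd47-210.

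**Figure D4:**
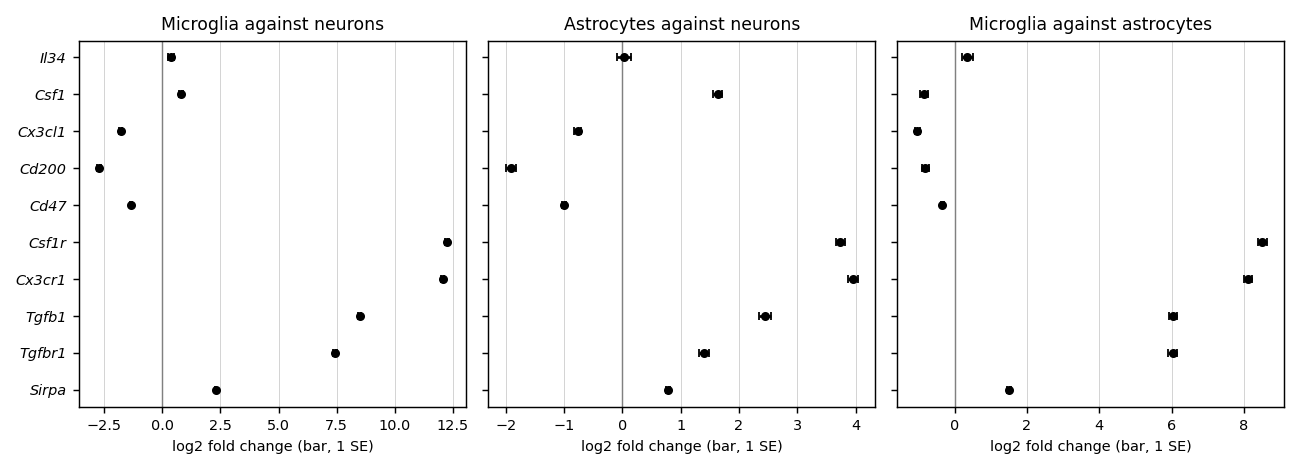
Log2 fold change (x axis) of the 10 genes (y axis) between microglia and neurons, astrocytes and neurons, and microglia and astrocytes, from the count model. Points are estimates and bars 1 SE, mostly narrower than the points. Csf1r and Cx3cr1 lie above 12 for microglia against neurons, and Cx3cl1, Cd200 and Cd47 lie below 0 in all 3 panels.

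Contrasts among the neuronal types were with the average log2 level of the other neuronal types. A call therefore does not place a gene above or below each of them. In cerebellar granule cells, 7 of the 10 genes were lower (43.0% of all genes) and 3 were higher, Cd47, Sirpa and Tgfb1 (34.9%). Of the 7, Il34, Csf1r, Cx3cl1, Cx3cr1 and Tgfbr1 were also lower than in each other neuronal type. Csf1r and Cx3cr1 were among the 7, at 0.315 and 0.0883 TPM on average. Microglial markers were lowest there too, at a median of 0.0065% of their microglial level, against 0.0432% to 0.0655% in the other neuronal types. The part of microglial mRNA in the Csf1r and Cx3cr1 calls of any neuronal type was not tested. The lower genes included Il34, Cx3cl1 and Tgfbr1, by over 10-fold each, while Csf1 was lower only by 0.33 ± 0.10 (log2, SE), and this was lost with the resequenced libraries in place of their first-batch ones (-0.24, adjusted p = 0.061). It was also lost without replicate 1 (-0.24, adjusted p = 0.1) or replicate 2 (-0.24, adjusted p = 0.098) of that type. Type by type, Csf1 was higher in cerebellar granule cells than in interneurons (log2 0.53, adjusted p = 9.6e-04) and layer V neurons (adjusted p = 0.011). Cd200 did not differ there from dentate gyrus granule cells (adjusted p = 0.84). In dentate gyrus granule cells, 5 genes were higher (36.5% of all genes) and 5 lower (27.6%), led by Tgfbr1 and Csf1 on the higher side. Cx3cl1 was also on that side, although dentate gyrus granule cells were below layer V neurons by 0.39 (log2). In layer V neurons, 7 were higher (35.9% of all genes), led by Il34 and Cx3cl1, and Csf1 and Cd47 were lower (31.7%), while Tgfb1 did not pass the test (adjusted p = 0.098). Of the 7, Sirpa was below cerebellar granule cells by 0.20 (log2). Cx3cr1 did not differ from dentate gyrus granule cells (adjusted p = 0.44) or interneurons (adjusted p = 0.3). Csf1r in layer V neurons (log2 0.31 ± 0.12 SE, adjusted p = 0.027) was at about 1 TPM and turned to -0.21 on the TPM scale (adjusted p = 0.099). It was also lost without any 1 of 5 libraries, namely dentate gyrus replicate 1, layer V replicates 1 and 2 and cerebellar granule cell replicates 2 and 3 (0.25 to 0.28, adjusted p = 0.052 to 0.13). Type by type, Csf1r in layer V neurons was below dentate gyrus granule cells by 0.79 and interneurons by 0.59. It was above cerebellar granule cells only, by 2.32 (log2). In interneurons, 6 were higher (36.0% of all genes), led by Il34, and 4 lower (28.4%), led by Sirpa. Cx3cl1 was among the 6, although interneurons were below layer V neurons by 1.14 and below dentate gyrus granule cells by 0.75 (log2). The Tgfb1 call in interneurons (log2 0.42, adjusted p = 0.019) was lost without interneuron replicate 1 (0.33, adjusted p = 0.11) or 2 (0.42, adjusted p = 0.055). Oligodendrocyte markers were high in the interneuron libraries, and their part in these differences was not tested.

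The order of the 6 types was resolved at most steps. Over the 10 genes there were 50 steps between neighbours in the order of mean TPM. Of these, 40 passed the test, all in the direction of that order. Over all genes 56.6% of such steps passed, counted in either direction. The 10 steps of these genes that did not pass were 2 each for Csf1, Cx3cr1, Cd200 and Tgfb1 and 1 each for Csf1r and Cd47. For Tgfb1 the neuronal types from cerebellar granule cells to interneurons (adjusted p = 0.83) and from layer V neurons to dentate gyrus granule cells (adjusted p = 0.37) were such neighbours, all at about 1 TPM or less. The fitted difference ran against the TPM order at 1 such step each of Csf1 (log2 -0.15), Csf1r (-0.20) and Cx3cr1 (-0.14).

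The small amounts of microglial genes in the other pull-downs were compared with those of microglial markers. In astrocytes, Csf1r was at 0.261% and Cx3cr1 at 0.36% of the microglial mean TPM, within the range of the 15 markers, of which 14 were at 0.184% to 0.717% and Sall1 was higher (median 0.35%). Tgfb1 (1.62%) and Tgfbr1 (1.55%) were higher than 14 of the 15 markers, the exception being Sall1. In the neuronal types, Csf1r and Cx3cr1 were at 0.00535% to 0.0582%, within the range of the markers in each type. Tgfbr1 in dentate gyrus granule cells, at 2.5%, and in layer V neurons, at 1.23%, was above every marker there (at most 0.432% and 0.315%), as Tgfb1 was in layer V neurons (0.343%) and, with Tgfbr1, in cerebellar granule cells (0.434% and 0.156%, where the highest marker was at 0.111%). Sirpa was above every marker in all types (12.4% to 37.2%).

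The same was done for neuronal genes in glia, relative to layer V neurons, which come from the same tissue as both glial types. In microglia, the 10 neuronal markers were at 3.91% to 14.0% of their layer V level. Cx3cl1, at 11.4%, lay within that range, Cd200 at 15.5%, Il34 at 21.9% and Cd47 at 54.1% lay above it, and Csf1 was higher than in layer V neurons, at 286%. Relative to the mean of the 4 neuronal types, the markers were at 3.85% to 17.7% in microglia, with Cd200 (17.6%) inside that range and Cx3cl1 (18.2%) above it, so that the placing of both depended on the reference. In astrocytes, 9 of the markers were at 10.3% to 15.3%. Il34, at 16.9%, lay between these and the highest marker, Syt1, and Cx3cl1 (19.8%) and Cd200 (20.2%) lay above every marker. Relative to the 4 neuronal types, Cd200 (22.8%) lay below the highest astrocyte value of a marker, that of Nrgn, and Cx3cl1 (31.5%) and Il34 (36.5%) lay above it. Cd47 was at 82.1% and Csf1 at 455% of the layer V level. The part of mRNA from other cells in these levels was not tested.

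**Figure D5:**
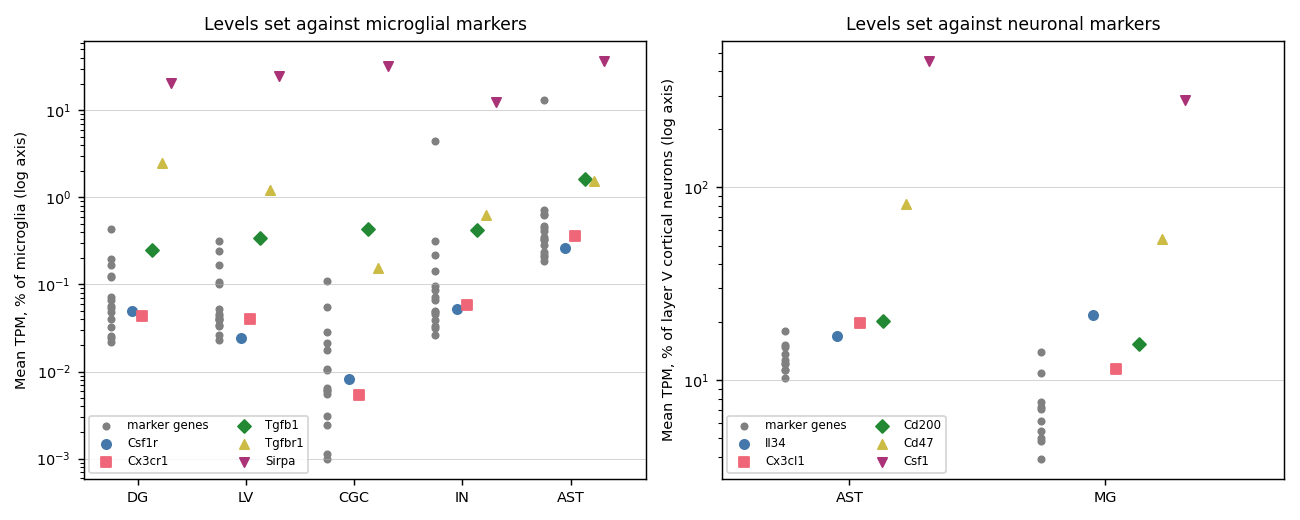
Mean TPM as a percent of the level in microglia (left) or in layer V neurons (right), on log axes (y), in the other pull-downs (x). Grey points are microglial (15) or neuronal (10) marker genes and coloured symbols the genes described. Csf1r and Cx3cr1 lie among the microglial markers in every type, and Csf1 lies above 100% in both glial types.

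The wider pathways were mostly higher in microglia too. Of 67 further genes of the 5 axes, 62 passed the filter, and 50 of them were higher and 6 lower in microglia than in neurons, beside 45.1% higher and 37.2% lower of all genes tested. The median log2 difference was 2.44 beside 0.15 over all genes. In astrocytes against neurons, 39 were higher and 14 lower, beside 43.0% and 34.1% of all genes, with a median of 1.58 beside 0.14. The genes higher in astrocytes included myeloid genes that were far higher in microglia, such as Tyrobp (8.66 TPM in astrocytes and 2740 TPM in microglia), Spi1 (2.04 and 425.5 TPM) and Ctss (19.6 and 8931 TPM), and the part of microglial mRNA in these calls was not tested. Of 16 genes of the CSF1R axis, 13 were higher and 2 lower in microglia than in neurons. All 9 tested genes of the fractalkine axis were higher, 4 of 7 of the CD200 axis, 7 of 9 of the CD47 axis and 17 of 21 of the TGF-β axis, with 0, 0, 1 and 3 lower. The lists hold myeloid genes such as the 3 just named, which adds to the counts higher in microglia. Vascular markers were also highest in the microglia libraries, and their part in these counts was not tested.

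Genes with the most similar profile over the 18 libraries followed these patterns, with Pearson's r of log2(TPM + 1) given as a description among 18687 genes, the libraries of a type not being independent points. Nearest to Csf1r were Laptm5, Selplg and Rnase4 (r = 0.999 each), and nearest to Cx3cr1 were Selplg (1.000), Tmem119 and Tyrobp (0.999 each). Nearest to Tgfb1 were Tmem37, Chad and Tmem173 (0.998 each), and nearest to Tgfbr1 were Srsf9 (0.996), Gm15500 (0.993) and Arap3 (0.992). Nearest to Cx3cl1 were 2810032G03Rik (0.996) and the potassium channel gene Kcnma1 (0.995). Nearest to Il34 were Efcab6 (0.985), Socs2 (0.981) and Gm13205 (0.979), and nearest to Csf1 were Tle4 (0.978), Glis3 (0.963) and Jag1 (0.960). Nearest to Cd200 were Rgs17 (0.991), Tstd3 (0.989) and Habp4 (0.988), nearest to Cd47 were Zdhhc17 (0.992), B230369F24Rik (0.991) and Ipo7 (0.989), and nearest to Sirpa were Chmp1b (0.966), Gjc1 (0.963) and Cflar (0.962).

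The promoters were searched for letters of motifs linked to myeloid and activity-dependent transcription. RefSeq promoter windows (GRCm38.p6, 250 bases before to 50 after the start) were at hand for 7 of the 10 genes, 9 windows in all. Il34, Csf1r and Sirpa had none and were not searched. On either strand, no window held the PU.1-type letters GAGGAAGT, the cAMP-response letters TGACGTCA or the ETS-type letters CCGGAAGT. These were found in 3.2%, 1.79% and 3.89% of all 32851 windows. At such shares, none among 9 windows is the usual outcome, so the search says nothing about these genes.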

How the data were processed

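RiboTag mRNA from 6 cell types was sequenced by the authors, trimmed with cutadapt 3.5 and quantified per transcript with kallisto 0.46.2 (names and versions per the submitters' processing notes) against GENCODE M24 transcripts. The deposited files hold estimated counts and TPM for each transcript. Reads mapping to more than 1 transcript are split by estimation. Here both were summed per gene symbol (the gene ID with most counts), and counts were rounded. Groups came from the labels, with the first-batch library where a replicate was sequenced in both batches (18 of 22 libraries). The study calls the 3 replicates of a type biological replicates.

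The test was edgeR 4.0.16 (quasi-likelihood, TMM, filterByExpr, 1 fit over 18 libraries) with Benjamini-Hochberg adjustment over 20524 genes at 0.05, and 4-fold as a further threshold. It was tested on simulated data. Alternatives were DESeq2 1.42.0, limma 3.58.1 on log2(TPM + 1) and log2(TPM + 0.1), other filters, normalization, batches and transcripts, and leaving out each library. Named genes were the 10 genes, fixed partner genes and, for each of the 10, the 3 genes with the highest Pearson r among those with a mean of at least 1 TPM in a cell type. One gene that this rule names is not reported here. The genes and lists were chosen with earlier results of these data known. Annotated positions are from GENCODE M21 (GRCm38). The sleuth tests of the study were not run here.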

Additional observations from a re-analysis of the deposited data

How the results depend on the processing

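Over all alternatives, 1939 values of the fold changes of the 10 genes kept their direction and their side of the threshold, 39 lost and 3 gained a call and 19 changed sign. The counts of higher and lower genes stayed within 1.5 times in every alternative, between 6 and 7 higher for microglia against neurons, where 3 were lower throughout. Astrocyte Il34 against neurons (log2 0.03) became -0.36 and -0.26 on log2(TPM + 1) and log2(TPM + 0.1) and -0.01 with all 22 libraries and batch as a term, with a range of -0.15 to 0.06 when leaving out single libraries. Layer V Csf1r (0.31) became -0.21 and -0.19 on those TPM scales. With batch 2 libraries alone, layer V Tgfb1 (-0.30) became 0.07 and cerebellar granule cell Csf1 (-0.33) became 0.07. Layer V Tgfb1 passed the test without dentate gyrus replicate 2 (-0.38) or layer V replicate 2 (-0.54). The cause was not tested in these cases. Batch 1 alone gave no value for microglia or interneurons, which it lacks. Replicate numbers were not used as pairs. Deviations of libraries with the same number correlated at -0.097 to 0.104 (median 0.029), and with unlike numbers at -0.1 to 0.12 (median -0.018). These values do not show whether any cell types shared mice. With the replicate block, 7 genes were higher and 3 lower in microglia than in neurons, and the block changed no call. The median difference of all genes between astrocytes and neurons moved from 0.14 to -0.10 and between microglia and neurons from 0.15 to -0.07 on log2(TPM + 1). Among the neuronal types, mean levels were at most 1.98 TPM for Csf1r, 0.962 TPM for Cx3cr1 and 1.06 TPM for Tgfb1, and 1, 2 and 2 of their steps between neighbours did not pass the test. Over all genes, 8817 were higher and 6997 lower in astrocytes than in neurons, against 6269 and 9280 on log2(TPM + 1). For layer V neurons the counts of 7362 and 6504 became 4606 and 9024 on that scale, and for interneurons 7389 and 5838 became 8466 and 4275 on log2(TPM + 0.1). The median for layer V neurons moved from 0.04 to -0.12 on log2(TPM + 1).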
